A study of Mus musculus with 17 samples.

Results

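The lysyl oxidases are a family of secreted, copper-dependent amine oxidases encoded in the mouse by Lox, Loxl1, Loxl2, Loxl3 and Loxl4. These 5 genes were taken by symbol from the array's annotation, with the brightest probe set kept where a gene had several, out of 19938 genes measured in all. Of the 5, 4 had a probe set annotated to that symbol alone (Lox, Loxl1, Loxl3 and Loxl4). The 1 probe set of Loxl2 was also annotated to a predicted gene, so its signal could not be assigned and Loxl2 is not described further. The family was chosen because Lox and Loxl1 were lower and Loxl4 higher after induction of dnBrg1. The values of that induction are therefore given as a description, without a test, and tests are reserved for the other lines.

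Lysyl oxidases oxidise lysine and hydroxylysine side chains of collagens and elastin to reactive aldehydes, which then condense into the covalent cross-links that stiffen the extracellular matrix. Lox and Loxl1 are made as precursors with a propeptide that secreted proteases of the Bmp1 group remove, and Loxl1 is known above all for elastic fibre upkeep. Loxl2, Loxl3 and Loxl4 instead carry scavenger receptor cysteine-rich domains ahead of the shared catalytic domain. In mammary tissue the family is best known for matrix stiffening around tumours, and Lox is a classical target of transforming growth factor beta and of hypoxia-inducible factor.

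The series holds 17 Affymetrix Mouse Gene ST arrays of RNA from a mouse mammary epithelial cell line (3134 cells) in 4 stable derivatives that all carry a tetracycline-repressed transactivator. The control derivative (3134Tet) has the transactivator alone, and each of the others also carries 1 dominant-negative protein with a Flag tag, made from Brg1, Chd4 or Snf2h, the motor proteins of SWI/SNF, NuRD and ISWI chromatin remodeling complexes (genes Smarca4, Chd4 and Smarca5). All stocks were held in 5 µg/ml tetracycline. Cells were then plated for 48 h in medium with charcoal-treated serum, either with tetracycline (repressed, neither protein made) or without it (induced: the transactivator in every line, plus the dominant-negative protein in its own line). Each dominant-negative line has 2 arrays per condition, and the control has 2 repressed and 3 induced. The labels do not say whether a line is 1 clone or whether replicates are separate cultures. The p-values therefore cover the spread among these samples alone, and that spread may be technical. The series addressed how far the remodelers act at the same genes.

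Values are log2 signals, a change is the induced mean minus the repressed mean, and a call is a limma p-value under 0.05 after Benjamini-Hochberg adjustment over all 19938 genes. Of the targeted genes, Chd4 read 10.56 and 10.35 in repressed and 12.27 and 12.27 in induced dnChd4 arrays. Smarca4 (9.66 and 9.46, then 9.61 and 9.73 in dnBrg1) and Smarca5 (9.69 and 9.81, then 9.43 and 9.59 in dnSnf2h) overlapped or were lower when induced, so for those lines the targeted gene did not check the labels. The labelled epithelial identity was only partly borne out by markers, since 2 of 10 epithelial markers (Krt8 and Cldn3) lay above the median gene and 3 (Epcam, Esrp1 and Krt19) in the lowest 30%. Of 9 fibroblast and mesenchymal markers, 4 lay above the median gene (Vim, Pdgfra, Pdgfrb and Thy1) and 4 in the lowest 30% (Dcn, Dpt, Fap and Lum). The 5 control arrays did not group by label. Across genes, control repressed replicate 1 correlated with control induced replicates 2 and 3 at r = 0.995 each, and with its own replicate at r = 0.975, while control repressed replicate 2 correlated with control induced replicate 1 at r = 0.994. The files hold nothing that settles whether the labels of control repressed replicate 1 and control induced replicate 1 are right, so values of the control line, and calls from fits that include it, hold only as labelled. The dominant-negative lines were therefore fitted as 12 arrays without the control line. Adding the 5 control arrays to that fit changes none of the changes given for those lines but raises the standard errors, and the calls lost that way are named below.

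Lox, which encodes the founding collagen cross-linking enzyme of the family, was lower after induction in each of the 3 dominant-negative lines. In dnChd4 it read 10.46 and 10.22 in the repressed arrays and 9.46 and 9.39 in the induced ones. Both induced arrays lay below both repressed arrays, and Lox fell by 0.91 (SE 0.115, 1.88-fold; limma adjusted p = 6.55e-05). In dnSnf2h it read 10.29 and 10.52 when repressed and 9.12 and 9.29 when induced. The groups again did not overlap, and Lox fell by 1.19 (SE 0.115, 2.29-fold; limma adjusted p = 1e-05). In dnBrg1 it read 9.40 and 9.42 when repressed and 8.15 and 8.34 when induced, a change of -1.16 (SE 0.115, 2.24-fold) that is described and not tested. Both repressed dnBrg1 arrays lay below every repressed dnChd4 and dnSnf2h array, and the induced dnChd4 arrays read as high as the repressed dnBrg1 arrays (9.43 ± 0.05 against 9.41 ± 0.02, SD, n = 2 each). Across all genes 6.22% were called lower in dnBrg1, 6.82% in dnChd4 and 8.34% in dnSnf2h. Groups that did not overlap, on the lower side, were found for 29.9%, 32.9% and 24.1% of all genes in the same order. With the control arrays in the fit the standard error of Lox rose to 0.421 and neither call was kept (adjusted p = 0.44 in dnChd4 and 0.356 in dnSnf2h).

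**Figure D1:**
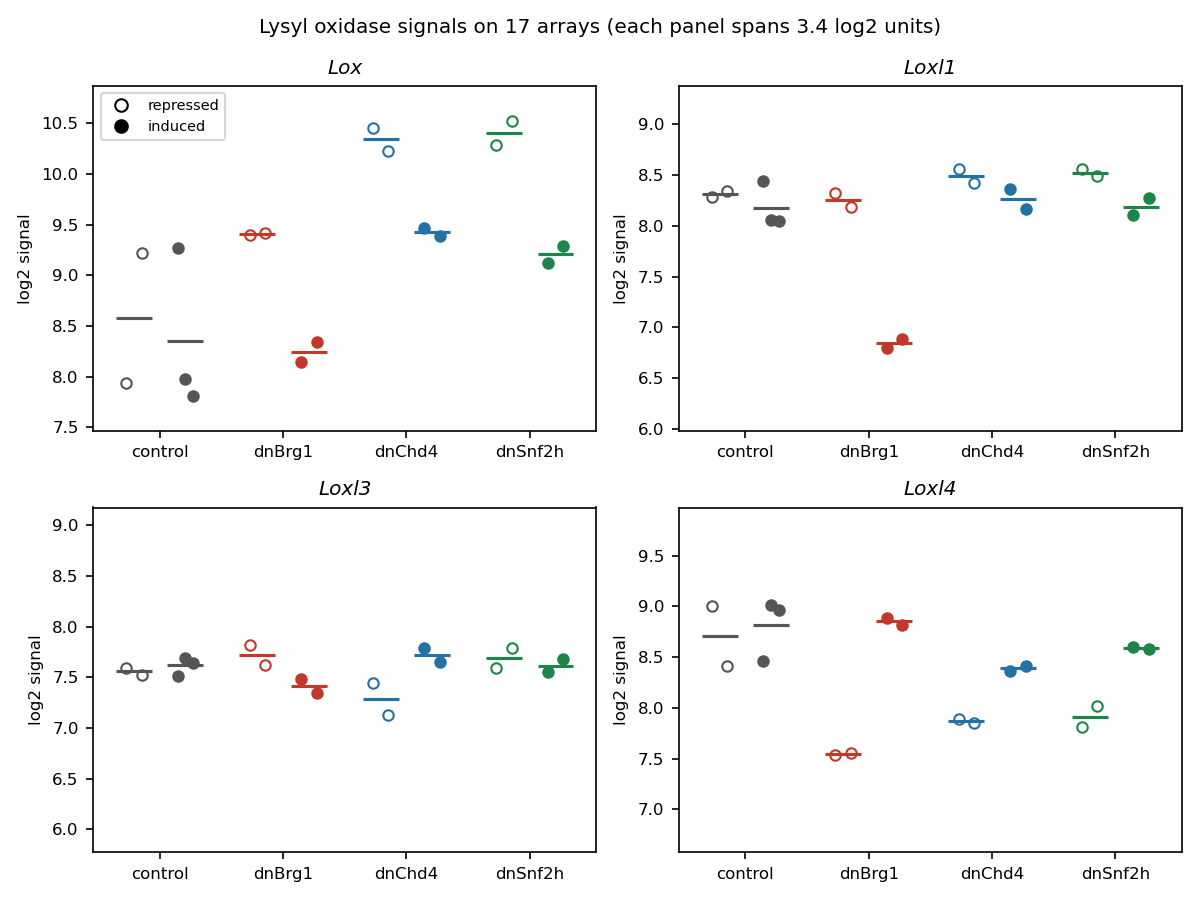
Log2 signal of Lox, Loxl1, Loxl3 and Loxl4 on each of the 17 arrays (y axis), by line (x axis), with open points for repressed arrays, filled points for induced arrays and a bar for each group mean; every panel spans the same range of log2 units. Lox separates in the 3 dominant-negative lines, Loxl1 drops to 6.80 and 6.89 in induced dnBrg1, Loxl3 stays between 7.13 and 7.82, and the control arrays split within their groups for Lox and Loxl4.

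Loxl1, the member tied to elastin, was lowest by far in the induced dnBrg1 arrays. It read 8.32 and 8.18 in repressed dnBrg1 and 6.80 and 6.89 in induced dnBrg1, a change of -1.41 (SE 0.105, 2.66-fold) that is described and not tested. On all other arrays of the series, induced or repressed, Loxl1 lay between 8.04 and 8.56. In dnSnf2h it read 8.56 and 8.49 when repressed and 8.11 and 8.27 when induced. The groups did not overlap, and Loxl1 fell by 0.33 (SE 0.105; limma adjusted p = 0.0392), a call close to the threshold that was lost with the control arrays in the fit (adjusted p = 0.382), with the line alone (adjusted p = 0.171), and without dnSnf2h repressed replicate 1, repressed replicate 2 or induced replicate 1 (adjusted p up to 0.242). In dnSnf2h 8.34% of all genes were called lower and 24.1% were lower without overlap. Loxl1 read 8.56 and 8.42 in repressed and 8.36 and 8.17 in induced dnChd4 arrays, a change of -0.22 (SE 0.105) that did not pass (limma adjusted p = 0.18). These groups did not overlap either, as for 32.9% of all genes on the lower side. The changes of dnChd4 and dnSnf2h differed by 0.11, with a 95% interval from -0.21 to 0.43 (adjusted p = 0.904).

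Loxl3, a member with scavenger receptor cysteine-rich domains, moved least, with 8 group means spanning 0.43. In dnChd4 it read 7.44 and 7.13 when repressed and 7.79 and 7.65 when induced. The groups did not overlap, and Loxl3 rose by 0.43 (SE 0.122, 1.35-fold; limma adjusted p = 0.0221), where 11.2% of all genes were called higher and 27.2% were higher without overlap. The call was lost with the control arrays in the fit (adjusted p = 0.348), with the line alone (adjusted p = 0.0522), and without dnChd4 repressed replicate 2 (0.28; adjusted p = 0.291) or induced replicate 1 (0.36; adjusted p = 0.195). In dnSnf2h the arrays overlapped, at 7.59 and 7.79 repressed and 7.55 and 7.68 induced, a change of -0.07 (SE 0.122; adjusted p = 0.764). In dnBrg1 they read 7.82 and 7.62 repressed and 7.48 and 7.35 induced, a change of -0.30 (SE 0.122) given without a test. The dnChd4 change exceeded the dnSnf2h change by 0.50 (95% interval 0.14 to 0.87), which had an unadjusted p of 0.0108 and did not pass over all genes (adjusted p = 0.517). In that difference 0.130% of genes were called.

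Loxl4, the other measured member with scavenger receptor cysteine-rich domains, went the opposite way to Lox. In dnChd4 it read 7.89 and 7.85 when repressed and 8.36 and 8.42 when induced. In dnSnf2h it read 7.81 and 8.02 when repressed and 8.60 and 8.58 when induced. In both lines every induced array lay above every repressed one, and Loxl4 rose by 0.52 in dnChd4 (SE 0.0941, 1.43-fold; limma adjusted p = 0.0012) and by 0.68 in dnSnf2h (SE 0.0941, 1.60-fold; limma adjusted p = 0.000176), where 11.2% and 9.20% of all genes were called higher and 27.2% and 22.3% were higher without overlap. In dnBrg1 it read 7.53 and 7.56 when repressed and 8.89 and 8.82 when induced, a change of 1.31 (SE 0.0941, 2.47-fold) given without a test, in a line where 8.01% of all genes were called higher and 23.6% were higher without overlap. With the control arrays in the fit neither call was kept (adjusted p = 0.42 in dnChd4 and 0.295 in dnSnf2h).

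Loxl4 has a second, dimmer probe set that was not used to choose the gene's value. On it Loxl4 read 7.25 and 7.28 in repressed and 7.59 and 7.69 in induced dnChd4 arrays, a rise of 0.38 (SE 0.0805; limma adjusted p = 0.0184, adjusted over all probe sets). It read 7.06 and 7.05 in repressed and 7.72 and 7.85 in induced dnSnf2h arrays, a rise of 0.73 (SE 0.0805; adjusted p = 0.00132). In dnBrg1 it read 6.78 and 6.82 when repressed and 7.99 and 7.97 when induced, a change of 1.18. Both probe sets thus gave the same direction in each dominant-negative line, on the same RNA.

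Loxl4 was the only lysyl oxidase with an entry among the promoter windows used, so none is shown for Lox, Loxl1 or Loxl3. The upstream sequence of Loxl4 is shown here. It covers the 250 bases before the gene's start, from RefSeq on GRCm38.p6, minus strand, chr19:42612807-42613056, and is printed 5′ to 3′ with a motif match in capitals.
Loxl4: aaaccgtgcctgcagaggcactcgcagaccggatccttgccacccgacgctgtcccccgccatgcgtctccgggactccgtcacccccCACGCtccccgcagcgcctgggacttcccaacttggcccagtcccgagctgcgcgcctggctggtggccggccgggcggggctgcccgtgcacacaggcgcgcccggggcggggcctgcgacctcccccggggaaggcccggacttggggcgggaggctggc
The window held 27 CG dinucleotides, against a median of 6 over 32851 promoter windows of this length, and its GC content was 76.0% against a median of 52.4%. Both strands were searched. The capitals mark GCGTG on the opposite strand, a hypoxia response element core, found in 28.2% of the windows. The TATA box letters TATAAA, which 12.4% of windows hold, had no match. Nor did TGANTCA, the AP-1 site, which 6.75% of windows hold. The other hypoxia core, ACGTG, was absent here and is held by 16.6% of windows. The SMAD element CAGACA was likewise absent and is held by 17.1% of windows, so no matches overlapped. A match describes these letters and not a bound site.

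**Figure D2:**
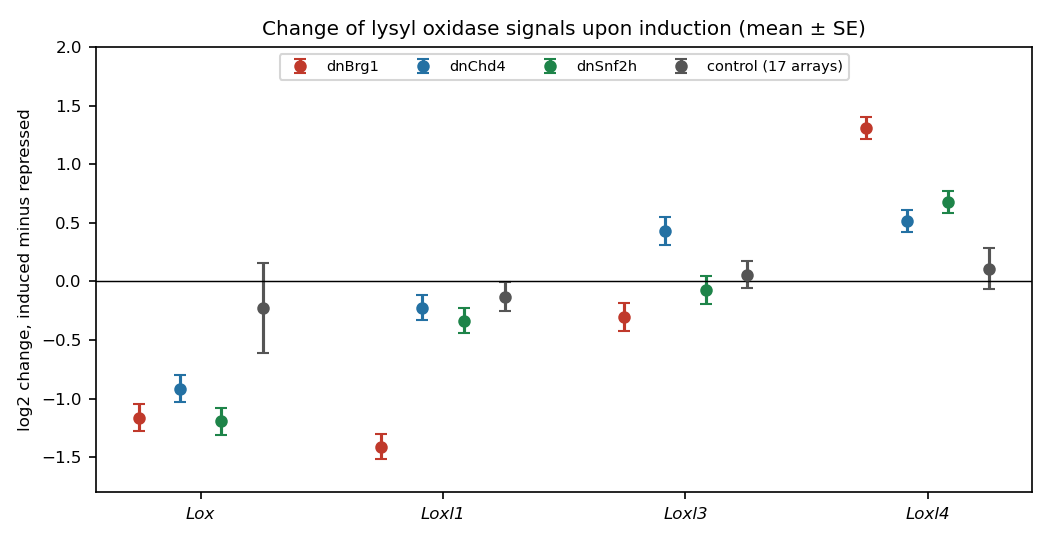
Log2 change, induced minus repressed (y axis), of each measured lysyl oxidase (x axis) in each line, with bars for the standard error of the limma fit (12 arrays for the dominant-negative lines, 17 for the control line). Lox lies between -1.19 and -0.91 and Loxl4 between 0.52 and 1.31 in the 3 dominant-negative lines, and Loxl1 at -1.41 in dnBrg1 lies apart from -0.22 and -0.33 in the other lines.

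Set side by side, the changes were closest between lines for Lox (-1.16 in dnBrg1, -0.91 in dnChd4 and -1.19 in dnSnf2h). They were -1.41, -0.22 and -0.33 for Loxl1, -0.30, 0.43 and -0.07 for Loxl3, and 1.31, 0.52 and 0.68 for Loxl4. The dnChd4 and dnSnf2h changes differed by 0.28 for Lox (95% interval -0.07 to 0.63; limma adjusted p = 0.728) and by -0.16 for Loxl4 (95% interval -0.44 to 0.13; adjusted p = 0.83), neither of which passed. Before induction no member differed between these lines after adjustment over all genes, with repressed dnChd4 minus repressed dnSnf2h at -0.06 for Lox (95% interval -0.31 to 0.18), -0.03 for Loxl1 (-0.26 to 0.19), -0.40 for Loxl3 (-0.66 to -0.14; unadjusted p = 0.00498, adjusted p = 0.466) and -0.04 for Loxl4 (-0.24 to 0.16). For Loxl3 both repressed dnChd4 arrays lay below both repressed dnSnf2h arrays, but the share of all genes without overlap was not counted for this comparison. By limma 0.0150% of genes were called in it. On the second Loxl4 probe set the dnChd4 change minus the dnSnf2h change was -0.35 (SE 0.114; limma adjusted p = 0.714 over all probe sets). There repressed dnChd4 minus repressed dnSnf2h was 0.21 (SE 0.0805; adjusted p = 0.594), opposite in sign to the -0.04 of the first probe set. Differences from dnBrg1 were not tested, because the members were chosen on that line.

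The control line, in which induction brings on the transactivator alone, was split within its labels for Lox and Loxl4. Lox read 7.94 and 9.22 in the arrays labelled control repressed and 9.27, 7.98 and 7.81 in those labelled control induced. Loxl4 read 9.003 and 8.41, and 8.46, 9.02 and 8.97. Control repressed replicate 1 and control induced replicates 2 and 3 were thus low in Lox and high in Loxl4, and control repressed replicate 2 and control induced replicate 1 were the reverse, so each label held both patterns. Loxl1 read 8.28 and 8.34, and 8.44, 8.05 and 8.04, and Loxl3 read 7.59 and 7.52, and 7.51, 7.69 and 7.65, with overlapping groups.

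If the labels are taken as given, the control changes with all 17 arrays were -0.22 for Lox (SE 0.384), -0.13 for Loxl1 (SE 0.123), 0.06 for Loxl3 (SE 0.115) and 0.11 for Loxl4 (SE 0.174), each with a limma adjusted p of 0.994. No gene passed (0.00% called), and 845 had an unadjusted p under 0.05. Leaving out control repressed replicate 1 and control induced replicate 1 left 1 repressed array. The control changes then became -1.33 for Lox, -0.29 for Loxl1, 0.14 for Loxl3 and 0.58 for Loxl4. The direction in that smaller set follows from which arrays were left out, and its 1 repressed array was assumed to vary like other groups. Intervals and calls given for the control line with 15 arrays hold only under that assumption. The fall of Lox in dnChd4 differed from the control change by -0.69 with 17 arrays (95% interval -1.92 to 0.54) and by 0.41 with 15 (0.03 to 0.80; adjusted p = 0.345), and in dnSnf2h by -0.97 (-2.20 to 0.26) and 0.13 (-0.25 to 0.52). For Loxl4 the differences from control were 0.41 (-0.15 to 0.97) and -0.06 (-0.37 to 0.24) in dnChd4, and 0.57 (0.01 to 1.13; adjusted p = 0.844) and 0.09 (-0.22 to 0.40) in dnSnf2h. None passed, where 0.0401% and 0.818% of all genes were called in dnChd4 and 0.00% and 2.08% in dnSnf2h with 17 and 15 arrays (8, 163, 0 and 414 genes by limma; for the 0, 1121 had an unadjusted p under 0.05). For Loxl3 in dnChd4 the difference was 0.37 with 17 arrays (95% interval 0.003 to 0.74; limma adjusted p = 0.952) and 0.29 with 15. In dnSnf2h it was -0.13 and -0.22. For Loxl1 the differences were -0.09 and 0.07 in dnChd4, and -0.20 and -0.04 in dnSnf2h. With 17 arrays none of these passed. Thus a change of any measured member beyond that of tetracycline withdrawal and the transactivator alone was not shown in either line.

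**Figure D3:**
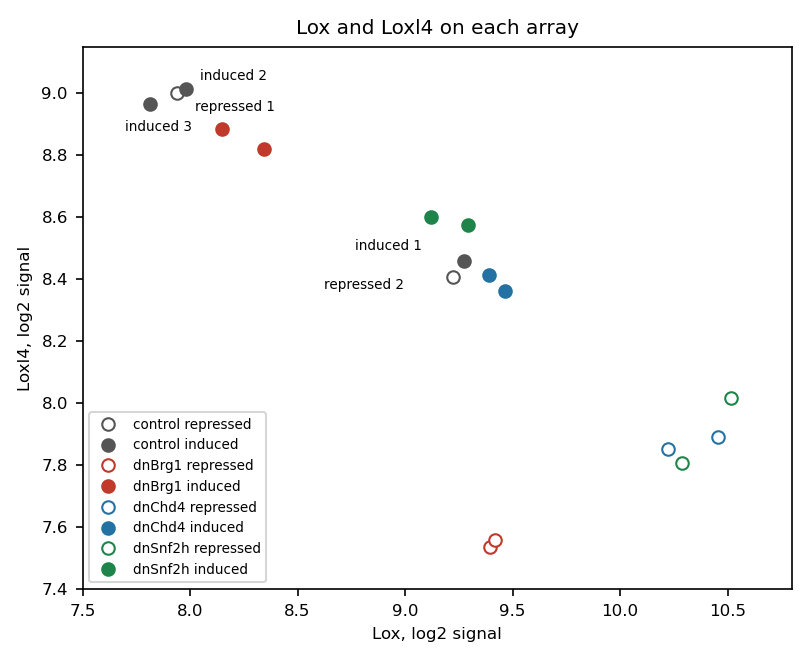
Log2 signal of Lox (x axis) against Loxl4 (y axis) on each array, with open points for repressed and filled points for induced arrays, coloured by line, and the 5 control arrays named by label and replicate. The induced arrays of each dominant-negative line lie to the upper left of its repressed arrays, and the control arrays fall in 2 places that do not follow their labels.

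Ordered by level, Lox was highest in repressed dnSnf2h (10.40 ± 0.16, SD, n = 2) and repressed dnChd4 (10.34 ± 0.16, SD, n = 2), whose arrays overlapped. It was lowest in induced dnBrg1 (8.25 ± 0.14, SD, n = 2), which overlapped with both control groups. Loxl1 ran from 8.52 ± 0.05 in repressed dnSnf2h to 6.84 ± 0.06 in induced dnBrg1 (SD, n = 2 each), and only that last group was separate from its neighbour by more than 1 log2 unit. Loxl3 ran from 7.72 ± 0.14 in repressed dnBrg1 to 7.29 ± 0.22 in repressed dnChd4 (SD, n = 2 each), and all neighbours in its order overlapped except control repressed and induced dnBrg1, 0.14 apart. By group mean Loxl4 was highest in induced dnBrg1 (8.85 ± 0.05) and lowest in repressed dnBrg1 (7.55 ± 0.02, SD, n = 2 each). Induced dnBrg1 overlapped with induced control (8.81 ± 0.31, SD, n = 3) and repressed control (8.71 ± 0.42, SD, n = 2). The highest arrays of those control groups read 9.02 and 9.003, above both induced dnBrg1 arrays. Further down the order, the induced dnSnf2h arrays (8.59 ± 0.02) were separate from the induced dnChd4 arrays (8.39 ± 0.04, SD, n = 2 each). The repressed dnSnf2h and dnChd4 arrays overlapped.

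The genes nearest to each member were those with the smallest root mean square difference over the 8 group means, each centred on its own mean, which include the control groups whose arrays did not group by label. For Lox they were the basal keratin gene Krt14 (0.276), the lamin gene Lmnb1 (0.284) and the DNA glycosylase gene Neil3 (0.299). Krt14 changed by -1.29, -1.15 and -1.29 in dnBrg1, dnChd4 and dnSnf2h. For Loxl1 they were the histone genes H1f1 (0.176) and H2bc18 (0.193) and the sarcosine dehydrogenase gene Sardh (0.205). H1f1 changed by -1.04, -0.24 and -0.32 in the same lines, H2bc18 by -0.93, -0.69 and -0.52, and Sardh by -0.88, 0.16 and -0.18. For Loxl4 they were the syntaxin gene Stx7 (0.135), the tissue factor gene F3 (0.139) and Gde1 (0.145), with F3 at 0.95, 0.54 and 0.33. Loxl3 was left out because its group means spanned under 1 log2 unit.

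The genes around the family were taken as 9 lists of 117 entries, 111 of them measured, and described by counts. Over all genes, for comparison, 8.01% were called higher and 6.22% lower in dnBrg1, 11.2% and 6.82% in dnChd4, and 9.20% and 8.34% in dnSnf2h. The median change of all genes was -0.0347 in dnBrg1, -0.0273 in dnChd4 and -0.00868 in dnSnf2h. In the control line with 15 arrays, which leaves 1 repressed array, it was -0.0149, and only list medians are given there. With the control arrays in the fit no list kept more than 1 call in any of these lines.

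The substrates did not move together. Of 15 collagen and elastin genes, 1 rose and 3 fell in dnBrg1 (median -0.05), 4 rose and 1 fell in dnChd4 (median 0.03), and 1 rose and 2 fell in dnSnf2h (median -0.01). In dnBrg1 the fibrillar collagen gene Col1a2 read 11.73 ± 0.18 when repressed and 10.94 ± 0.06 when induced (SD, n = 2 each) and fell by 0.79 (limma adjusted p = 0.000297), where Col3a1 (-0.80) and the microfibrillar collagen gene Col6a3 (-0.78) also fell. Col5a2, which encodes a chain that controls fibril width, rose by 1.47 in dnChd4 (SE 0.096; adjusted p = 2.26e-07) and by 1.16 in dnSnf2h. Col6a1 rose by 0.82 and Col6a2 by 0.48 in dnChd4, and Col1a2 (-0.59) and Col6a3 (-0.88) fell in dnSnf2h. The elastin gene Eln, named outside the rule as the substrate of Loxl1, changed by 0.13, -0.27 and -0.04 with no call. In the control line with 15 arrays the median of this list was -0.16. Fibroblast and mesenchymal markers moved beside these genes in dnBrg1, where 3 of 9 fell and the mean level of the list went from between 6.23 and 6.23 to between 5.96 and 6.004. In dnChd4 none of the 9 passed by limma (2 had an unadjusted p under 0.05), and 2 fell in dnSnf2h. Their mean went from between 6.22 and 6.28 to between 6.13 and 6.21 in dnChd4. In dnSnf2h it went from between 6.24 and 6.33 to between 6.04 and 6.25. Of 7 macrophage markers, 1 rose and 1 fell in dnBrg1, 2 rose in dnChd4 and 1 rose in dnSnf2h. The mean of that list went from between 4.81 and 4.84 to between 4.89 and 4.93 in dnBrg1. In dnChd4 it went from between 4.56 and 4.57 to between 4.85 and 4.96. In dnSnf2h it went from between 4.67 and 4.76 to between 4.88 and 4.93. The median change of the 7 was -0.0306, -0.0690 and 0.0566 in these lines, so most of them did not rise in dnBrg1 or dnChd4. Of the 7, 5 lay in the lowest 30% of genes, the defining marker Ptprc among them. Of 7 basal and myoepithelial markers 1 fell in dnBrg1, and their mean went from between 5.58 and 5.64 to between 5.30 and 5.33. That mean moved the other way in dnChd4, from between 5.74 and 5.81 to between 5.92 and 6.02. It also rose in dnSnf2h, from between 5.77 and 5.79 to between 5.83 and 5.91. The 1 marker called higher in each of these 2 lines was Acta2 (2.56 and 2.32), and 1 was called lower. The median change of the 7 was -0.0150 in dnChd4 and -0.0672 in dnSnf2h, so most of them did not rise. The part of these markers in the collagen and lysyl oxidase changes was not tested, and in bulk RNA fewer cells of a type and less RNA per cell cannot be told apart.

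Genes of elastic fibre assembly were called mostly on the lower side. Of 13 measured, 2 fell and 0 rose in dnBrg1, 3 fell and 0 rose in dnChd4, and 3 fell and 1 rose in dnSnf2h, with medians of -0.13, -0.0727 and -0.15. Ltbp1 and Ltbp4, which encode latent transforming growth factor beta binding proteins of microfibrils, passed in every dominant-negative line. Ltbp1 changed by -1.24 in dnBrg1 (SE 0.116; adjusted p = 1.1e-05), -0.61 in dnChd4 and -1.03 in dnSnf2h, and Ltbp4 by -1.06, -0.54 and -0.73. The fibulin gene Fbln2 changed by -0.61 in dnChd4 and by -1.03 in dnSnf2h (SE 0.151; adjusted p = 0.000262). In the control line with 15 arrays the median was -0.06.

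Among proteases and partners of lysyl oxidase precursors, 1 of 13 rose and 3 fell in dnBrg1, 3 rose and 0 fell in dnChd4, and 1 rose and 2 fell in dnSnf2h, with medians of -0.0881, 0.012 and -0.00745. Bmp1, the protease that releases mature Lox from its precursor, read 9.38 ± 0.13 in repressed and 10.11 ± 0.13 in induced dnChd4 arrays (SD, n = 2 each), a rise of 0.73 (limma adjusted p = 0.000219), and rose by 0.52 in dnSnf2h (adjusted p = 0.003). Its changes were thus opposite in sign to those of Lox in both lines. The procollagen protease enhancer genes Pcolce (-0.73) and Pcolce2 (-0.67) fell in dnBrg1, where the fibronectin gene Fn1 fell by 0.63. The thrombospondin genes Thbs2 and Thbs1 rose by 0.72 and 0.54 in dnChd4, and in dnSnf2h the periostin gene Postn fell by 0.67. The control line with 15 arrays had a median of -0.05 in this list.

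**Figure D4:**
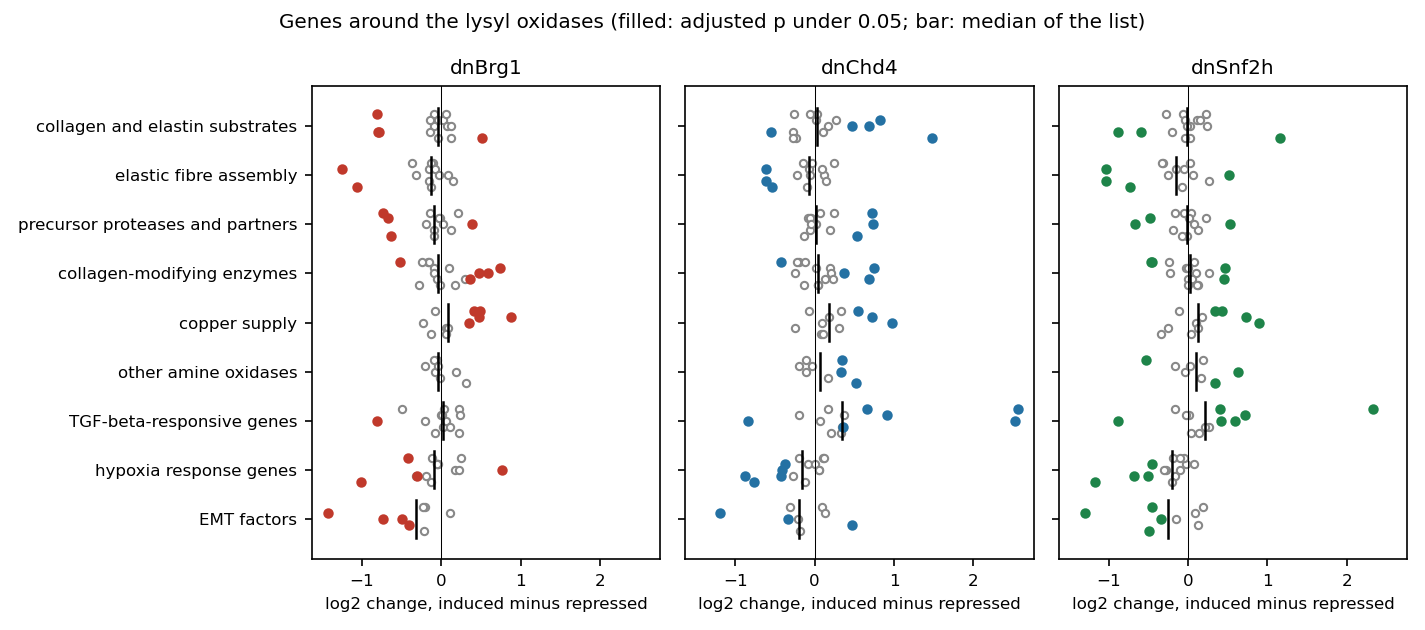
Log2 change, induced minus repressed (x axis), of every measured gene of the 9 lists (y axis) in dnBrg1, dnChd4 and dnSnf2h, with filled points for genes past the adjusted threshold, open points for the rest and a vertical bar at each list's median. Copper supply genes are called only to the right of 0 in these 3 lines, and substrates are called on both sides.

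Genes that modify and fold collagen went both ways. Of 16 measured, 4 rose and 1 fell in dnBrg1, 3 rose and 1 fell in dnChd4, and 2 rose and 2 fell in dnSnf2h, with medians of -0.0347, 0.0421 and 0.0271. Plod1, a lysyl hydroxylase that prepares the residues lysyl oxidases act on, rose by 0.74 in dnBrg1 (SE 0.0891; adjusted p = 7.22e-05), 0.75 in dnChd4 and 0.46 in dnSnf2h. Serpinh1, the collagen chaperone, changed by -0.52, -0.42 and -0.45, a fall in each line. The prolyl hydroxylase gene P4ha1 rose by 0.59 in dnBrg1 and P4ha2 by 0.69 in dnChd4, and P4hb fell by 0.47 in dnSnf2h. The control line with 15 arrays had a median of 0.07 here.

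Copper supply genes that passed all rose. Of 11 measured, 5 rose in dnBrg1, 3 in dnChd4 and 4 in dnSnf2h, and 0 fell in each, with medians of 0.08, 0.19 and 0.12. Atp7a, the pump that loads copper onto secreted cuproenzymes such as the lysyl oxidases, read 7.90 ± 0.11 in repressed and 8.77 ± 0.07 in induced dnBrg1 arrays (SD, n = 2 each), a rise of 0.88 (limma adjusted p = 4.78e-05). It rose by 0.73 in dnChd4 (adjusted p = 0.000137) and by 0.73 in dnSnf2h (adjusted p = 0.000163). The copper transporter gene Slc31a2 rose by 0.97 in dnChd4 and 0.89 in dnSnf2h, the importer gene Slc31a1 by 0.48 in dnBrg1, the copper chaperone gene Atox1 by 0.55 in dnChd4, and Cox17, which serves mitochondrial cytochrome oxidase, by 0.49 in dnBrg1 and 0.43 in dnSnf2h. In the control line with 15 arrays the median was likewise positive, at 0.30, and with 17 arrays none passed.

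The lists built on known inducers of Lox were split. Of 13 genes responsive to transforming growth factor beta, 0 rose and 1 fell in dnBrg1, and 5 rose and 1 fell in both dnChd4 and dnSnf2h, with medians of 0.0248, 0.34 and 0.22. The smooth muscle actin gene Acta2 rose by 2.56 in dnChd4 (SE 0.242; adjusted p = 6.09e-06) and 2.32 in dnSnf2h, Tagln by 2.53 in dnChd4 and the matricellular gene Ccn1 by 0.71 in dnSnf2h. Acta2 is also 1 of 7 basal and myoepithelial markers, of which 1 rose and 1 fell in each of these lines. Tgif1, a repressor in that pathway, fell in the 3 lines, with changes of -0.80, -0.84 and -0.88. Of 14 hypoxia response genes, 1 rose and 3 fell in dnBrg1, 0 rose and 5 fell in dnChd4, and 0 rose and 4 fell in dnSnf2h, with medians of -0.0837, -0.16 and -0.20. Ndrg1 fell in each line, with changes of -1.01, -0.76 and -1.17 (SE 0.0972). The growth factor gene Vegfa (-0.88 and -0.68) and the lactate dehydrogenase gene Ldha (-0.42 and -0.51) fell in dnChd4 and dnSnf2h. Bnip3 rose by 0.76 in dnBrg1, where Adm fell by 0.42. The control line with 15 arrays had a median of -0.25 in this list, and of 0.47 among the genes responsive to transforming growth factor beta.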

How the data were processed

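RNA was measured on 17 arrays in 8 groups named by the sample titles. The authors deposited 1 log2 value per probe set and array, judged to be log2 from the range of 2.02 to 14.86. The deposited values were made with Affymetrix Expression Console, per the submitters' processing notes. Not given in the sources used here are its version, the summarization, the normalization and the build. No background readings were used, and the number of arrays limits the precision. Of 35557 probe sets, 21789 had 1 gene symbol, 1621 several and 12147 none, and 19938 genes remained with the highest-mean probe set per gene. Group means were fitted with lmFit and eBayes of limma 3.58.1 (R 4.3.3), with 12 arrays for the dominant-negative lines and 17 for the control line, and tested on simulated data. P-values were adjusted by Benjamini-Hochberg over all genes, and 0.05 was the threshold. The members, lists, 12-array fit and naming rule were chosen with earlier results of these data known. Of each list and line, the 3 called genes with the smallest adjusted p were named. The comparisons of dominant-negative with control changes and the crossed pairing of control replicates were added after the data were seen. Other settings were 17 or 15 arrays, each line alone, a replicate block, quantile normalization, median centring, removal of the dimmest 30% of genes, trended and robust eBayes, array weights, all probe sets and each array left out.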

Additional observations from a re-analysis of the deposited data

How the results depend on the processing

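With all 17 arrays the counts of called genes dropped to 68 in dnBrg1, 19 in dnChd4, 1 in dnSnf2h, 8 for dnChd4 minus dnSnf2h and 0 for the repressed lines. The members kept their changes but not their calls: Lox at -0.91 in dnChd4 and -1.19 in dnSnf2h, Loxl3 at 0.43 in dnChd4, Loxl1 at -0.33 in dnSnf2h, and Loxl4 at 0.52 and 0.68. Each list then held 0 or 1 calls, and with 15 arrays the copper list held 5 in dnChd4. In the control line 15 arrays gave 5310 calls, with Lox at -1.33 and Loxl4 at 0.58. The dnSnf2h count was 1446 with the line alone and 2063 with array weights, and the difference count was 11 with all probe sets. The repressed count, 3 in the 12-array fit, was 1 with quantile normalization or median centring, and 0 with array weights or all probe sets. Loxl1 in dnChd4 was called at -0.29 with quantile normalization. Loxl3 in dnChd4 (0.43) was not called with the line alone or all probe sets, nor Loxl1 in dnSnf2h (-0.33) with these or array weights. The second Loxl4 probe set gave 1.18 in dnBrg1.

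Leaving out 1 array gave 1353 to 2175 calls in dnBrg1, 1926 to 2624 in dnChd4, 2342 to 4204 in dnSnf2h, 0 to 4 in control, 15 to 175 for the difference and 0 to 500 for the repressed lines, the 175 and the 500 both without dnSnf2h repressed replicate 1. Member ranges were 0.28 to 0.59 for Loxl3 and -0.32 to -0.13 for Loxl1 in dnChd4, -0.42 to -0.25 for Loxl1 and -0.17 to 0.0264 for Loxl3 in dnSnf2h. In control they were -0.87 to 0.42 for Lox and -0.19 to 0.41 for Loxl4. For dnChd4 minus dnSnf2h they were 0.16 to 0.40 for Lox, 0.0144 to 0.21 for Loxl1, 0.35 to 0.66 for Loxl3 and -0.26 to -0.0536 for Loxl4. Between the repressed lines they were -0.18 to 0.053 for Lox, -0.10 to 0.0352 for Loxl1, -0.56 to -0.25 for Loxl3 and -0.15 to 0.062 for Loxl4. A group left with 1 array was assumed to vary like the others, and the cause of these shifts was not tested.

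The labels do not say whether same-numbered replicates belong together. Correlations of their deviations were -0.743 (control), 0.016 (dnBrg1), 0.135 (dnChd4) and 0.313 (dnSnf2h). With a replicate block the counts were 3538, 4241 and 4239 in the dominant-negative lines and 0 in control and between the repressed lines (1 with the number shared by lines). The block turned Lox in control to 0.0466, as did the number shared by lines and the crossed pairing, which called 0 genes. Between the repressed lines it gave 0.11 for Lox, 0.0728 for Loxl1 and 0.000575 for Loxl4. A block within each line sets each group's value at the fitted level of replicate 1. These values and the 0 calls between the repressed lines thus compare replicate 1 levels, not group means, and do not show an effect of pairing. Of 314 tested member values under other settings, 281 kept their direction and their side of the threshold, and the 61 dnBrg1 values, which were not tested, kept their direction. Signal over background could not be judged from these values, and groups of 2 arrays limit every comparison.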

Other observations

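Loxl2 and Loxl3 are known as partners of Snai1 in epithelial-mesenchymal transition, and 8 transcription factor genes of that process were measured. In dnBrg1 4 fell and 0 rose (median -0.31), in dnChd4 2 fell and 1 rose (median -0.20), and in dnSnf2h 4 fell and 0 rose (median -0.25). Snai2 fell in each line, with changes of -1.43 in dnBrg1 (SE 0.163; limma adjusted p = 4.83e-05), -1.19 in dnChd4 and -1.30 in dnSnf2h. Zeb2 fell in dnBrg1 (-0.74), and Tcf3, which encodes the E2A proteins, in dnBrg1 (-0.50) and dnChd4 (-0.33). Snai1 itself (-0.45) and Twist1 (-0.50) fell in dnSnf2h, and Tcf4 rose by 0.47 in dnChd4. In the control line with 15 arrays the median of the 8 was -0.11.

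Of 8 other amine oxidase genes, 0 passed in dnBrg1 by limma (2 had an unadjusted p under 0.05), 3 rose and 0 fell in dnChd4, and 2 rose and 1 fell in dnSnf2h, with medians of -0.0446, 0.0734 and 0.0953. The histone demethylase gene Kdm1b rose by 0.53 in dnChd4 (SE 0.107; limma adjusted p = 0.00274) and 0.33 in dnSnf2h. The spermine oxidase gene Smox rose by 0.33 and 0.63 in these lines, and the monoamine oxidase gene Maoa by 0.35 in dnChd4. Aoc1, a copper amine oxidase gene read near the dim end of the array (5.00 ± 0.16 repressed and 4.47 ± 0.00 induced, SD, n = 2 each), fell by 0.53 in dnSnf2h. In the control line with 15 arrays the median of the 8 was 0.08.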
